A study of Homo sapiens with 30 samples.

Results

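The azurophil, or primary, granule genes of human acute myeloid leukemia (AML) cells were examined with their regulators, as a set of 10 genes. The set holds the enzyme gene MPO, the serine protease genes CTSG, ELANE and PRTN3, the inactive protease homologue AZU1, the intracellular serpins SERPINB1 and SERPINB10, the granule proteoglycan SRGN, and the transcription factors CEBPA and CEBPE. It was picked on measured values, because MPO and CTSG were lower in Molm-14 cells with an MPC1 deletion. For that reason the Molm-14 deletion is described below without a test for these genes. The 10 genes were found by symbol among the 58051 genes counted in the knockout series and the 60675 genes counted in the overexpression series. All 10 passed the filter on low counts in the knockout series and 9 of 10 passed it in the overexpression series, where SERPINB10 did not.

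Azurophil granules are the first granules that a promyelocyte makes, and they store enzymes that kill and digest microbes. Myeloperoxidase, the MPO product, uses hydrogen peroxide and chloride to make hypochlorous acid. Cathepsin G (CTSG), neutrophil elastase (ELANE) and proteinase 3 (PRTN3) are serine proteases that are activated by cathepsin C and packed on serglycin (SRGN), and azurocidin (AZU1) is a relative that has lost its protease activity. SERPINB1 inhibits elastase, proteinase 3 and cathepsin G in the cytosol. C/EBP alpha (CEBPA) is needed for granulocytic commitment and drives early granule genes, and C/EBP epsilon (CEBPE) acts at the step to later granules. AML blasts that stopped near the promyelocyte or monoblast stage often keep making these transcripts.

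RNA was sequenced in 30 libraries in 10 groups of n = 3. The knockout series used 3 lines, MV4-11, Molm-14 and THP-1, each infected with a lentiviral CRISPR/Cas9 vector that bore GFP and a single guide against MPC1, a subunit of the mitochondrial pyruvate carrier (KO), or with the empty vector (EV). The overexpression series used MV4-11 and Molm-14, infected with a lentiviral GFP vector that expresses the miR-1 hairpin from the EF1 alpha promoter (OE) or with its empty vector (EV). Both of these lines carry the FLT3-ITD mutation. THP-1 is a line of monocytic AML that the paper gives as FLT3-ITD negative. A comparison of MV4-11 with THP-1 is thus also one of lines with and without FLT3-ITD. No treatment or time point was given beyond these vectors. Whether KO cells were a clone or a pool was not stated. The origin of the replicates of a group was not stated either, so the tests measure the spread between 3 libraries, which may be technical.

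Libraries held 5339360 to 9106478 counts in the knockout series and 15543301 to 20939985 counts in the overexpression series. A count of 0 allows up to 0.338 to 0.544 counts-per-million (CPM) in the former and 0.145 to 0.2 CPM in the latter, which covers counting error only. MPC1 was at 23.5 to 26.0 CPM in MV4-11 KO and 53.7 to 58.3 CPM in MV4-11 EV, at 33.2 to 41.0 CPM against 72.9 to 80.0 CPM in Molm-14, and at 50.3 to 58.9 CPM against 90.6 to 100 CPM in THP-1. The mature miR-1 is not read in these libraries, but MIR133A1HG, the host transcript of MIR1-2, was at 2.26 to 4.06 CPM in the OE libraries and at 0 in the EV libraries. A list of 10 myeloid markers summed to 1060 to 1450 CPM in the knockout series and 788 to 1290 CPM in the overexpression series, with 8 of 10 above 1 CPM in every library. A list of 12 markers of other cell types summed to 1.04 to 33.6 CPM and 14 to 29.1 CPM, most of it KRT18, and the hemoglobin genes HBB and HBA1 were at 0 in every library of the overexpression series.

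AZU1, PRTN3 and ELANE lie side by side on the plus strand of chromosome 19. From the start of AZU1 to the end of ELANE they span 31.2 kb (GRCh38, chr19:825097-856247), with AZU1 (ENSG00000172232) first, PRTN3 (ENSG00000196415, 840999 to 848175) next and ELANE (ENSG00000197561, 851014 to 856247) last. CTSG (ENSG00000100448) is on the minus strand of chromosome 14, at 24573518 to 24576250, and MPO (ENSG00000005381) is on the minus strand of chromosome 17, at 58269855 to 58280935. AZU1, PRTN3 and ELANE are paralogs, so reads that fit more than 1 of them may have been split or lost. CEBPA shares 659 and 482 exonic bases with 2 antisense noncoding genes and SERPINB10 shares 293 exonic bases with a gene on its own strand. Whether counting used the strand was not stated, so CEBPA and SERPINB10 values are uncertain to that extent.

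Promoter sequences were available for 6 of the 10 genes, in RefSeq on GRCh38.p14. The 250 bases before the RefSeq start are printed for PRTN3 and AZU1, which fell in MV4-11 KO, and for CTSG, which did not pass the test there, each 5′ to 3′ on the strand of the gene. The regions are chr19:840749-840998 on the plus strand for PRTN3, chr19:827587-827836 on the plus strand for AZU1 and chr14:24576251-24576500 on the minus strand for CTSG. Capitals mark matches on either strand to TTGCNNAA (C/EBP), AACTG (MYB), GAGGAA (PU.1) and TGTGGT (RUNX), which are factors of granulocytic genes, and none of the matches shown overlap.
PRTN3: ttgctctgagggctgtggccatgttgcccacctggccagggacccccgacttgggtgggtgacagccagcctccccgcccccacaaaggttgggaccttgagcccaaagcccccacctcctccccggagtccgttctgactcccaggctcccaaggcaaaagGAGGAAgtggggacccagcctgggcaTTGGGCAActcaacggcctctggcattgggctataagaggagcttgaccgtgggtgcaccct
AZU1: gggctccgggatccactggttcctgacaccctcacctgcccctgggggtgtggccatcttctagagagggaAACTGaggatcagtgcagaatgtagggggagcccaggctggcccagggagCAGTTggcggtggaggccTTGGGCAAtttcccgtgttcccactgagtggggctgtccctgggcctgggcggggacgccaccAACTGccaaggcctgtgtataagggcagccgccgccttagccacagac
CTSG: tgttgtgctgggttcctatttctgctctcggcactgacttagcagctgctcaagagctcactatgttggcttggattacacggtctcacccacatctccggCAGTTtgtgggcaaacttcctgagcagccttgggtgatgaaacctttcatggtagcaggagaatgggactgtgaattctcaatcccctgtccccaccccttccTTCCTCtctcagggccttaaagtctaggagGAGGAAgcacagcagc
PRTN3 and AZU1 each held 1 C/EBP match, which begins 62 bases before the start of PRTN3 and 111 bases before that of AZU1, and CTSG held 0. A C/EBP match was present in the same stretch of 9.05% of 35116 RefSeq promoters. PRTN3 had 1 PU.1 match and CTSG had 2, against 23.6% of all promoters with any. AZU1 had 3 MYB matches and CTSG had 1, against 34.1% of all promoters with any. None of the 6 genes held the RUNX letters, which were in 11.0% of all promoters. Of the other genes with an entry, SERPINB1 had 1 MYB match, CEBPE had 1 MYB and 1 PU.1 match, and CEBPA had 0 matches to any of them. A match is a description of letters and not of binding.

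The empty-vector cells were compared first, to show how much of the granule program each line carried. Per kilobase of exon, the summed level of MPO, CTSG, ELANE, PRTN3 and AZU1 in the knockout series was 3372 ± 186 CPM per kb (SD, n = 3) in THP-1 EV, 1586 ± 118 in MV4-11 EV and 1426 ± 99.2 in Molm-14 EV. The lines differed in which transcript led. In THP-1 EV, CTSG made up 54.7% ± 3.37 of the sum and PRTN3 23.5% ± 1.85. In MV4-11 EV, PRTN3 made up 61.2% ± 1.85 and CTSG 13% ± 1.46. In Molm-14 EV, PRTN3 (31.7% ± 0.240), ELANE (29.5% ± 1.13) and CTSG (22.5% ± 1.87) were closer to each other. MPO was the smallest part in each line, at 0.0523% ± 0.00349 in THP-1 EV, 0.128% ± 0.0133 in MV4-11 EV and 1.36% ± 0.0185 in Molm-14 EV. SRGN, the core protein that holds the proteases, was at 3871 ± 255 CPM per kb in MV4-11 EV, above each of these transcripts in that line.

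**Figure D1:**
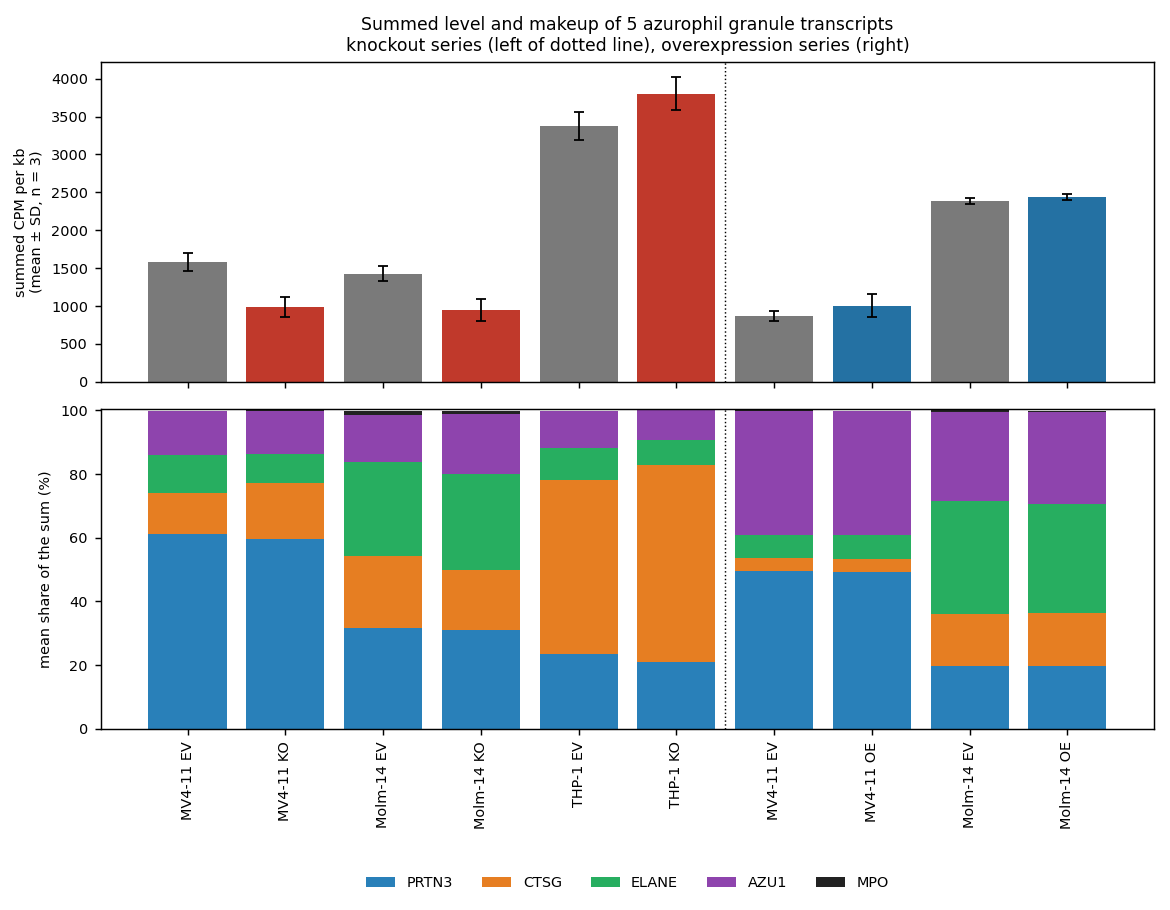
The upper plot gives the summed level of MPO, CTSG, ELANE, PRTN3 and AZU1 in CPM per kb of exon (bars, mean; error bars, SD; n = 3 libraries) for each of the 10 groups, and the lower plot gives the mean percent of that sum from each gene. CTSG is the largest part in THP-1 and PRTN3 in MV4-11, and the KO bars are lower than the EV bars in MV4-11 and Molm-14 but not in THP-1; the knockout series is left of the dotted line and the overexpression series right of it.

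Between THP-1 EV and MV4-11 EV, 8 of the 10 genes passed an FDR of 5% in edgeR, beside 67.5% of all 14490 genes tested. CTSG was at 2649, 2477 and 2433 CPM in THP-1 EV and at 317.6, 251.1 and 278.2 CPM in MV4-11 EV. The groups were far apart on the log2 scale, by 3.16 (SE 0.101, edgeR adjusted p = 3.67e-20). SERPINB10 was at 42.2, 46.4 and 38.4 CPM in THP-1 EV and 1.51, 1.62 and 1.70 CPM in MV4-11 EV, the widest difference of the set at a log2 fold change of 4.71 (SE 0.194). CEBPE (1.61), AZU1 (0.87) and ELANE (0.83) were also higher in THP-1 EV on the log2 scale, and SRGN (-1.20), SERPINB1 (-1.17) and PRTN3 (-0.29) were lower. MPO (log2 -0.19, edgeR adjusted p = 0.265) and CEBPA (0.21, edgeR adjusted p = 0.222) did not pass. CEBPA did pass with a correction for the GC content of genes (log2 fold change 0.84, edgeR adjusted p = 3.86e-10) and without MV4-11 EV replicate 1 (0.37, edgeR adjusted p = 0.0322). The PRTN3 call was the least firm, since its EV libraries overlapped between the lines, it turned to a log2 fold change of 0.34 with the GC correction, and it was lost with RLE scaling, with DESeq2 and without any 1 of 4 libraries (MV4-11 EV replicates 1 and 3, THP-1 EV replicates 1 and 2, edgeR adjusted p from 0.0584 to 0.157).

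In the overexpression series, 8 of the 9 genes tested differed between MV4-11 EV and Molm-14 EV, beside 64.8% of all 17542 genes tested. MPO was at 7.82, 7.67 and 6.48 CPM in MV4-11 EV and at 52.5, 46.7 and 53.9 CPM in Molm-14 EV (log2 fold change -2.80, SE 0.0986, edgeR adjusted p = 2.57e-15). ELANE was at 74.9, 65.3 and 55.3 CPM in MV4-11 EV and at 852.4, 884.3 and 883.6 CPM in Molm-14 EV (log2 fold change -3.75, SE 0.117). No MV4-11 library reached a Molm-14 library in either gene. CTSG (-3.47), AZU1 (-0.97) and CEBPA (-0.87) were also lower in MV4-11 EV on the log2 scale. SERPINB1 (0.25), SRGN (0.32) and CEBPE (1.96) were higher, CEBPE at 0.879 CPM against 0.222 CPM. PRTN3 did not pass, at 479.5 ± 72.6 CPM in MV4-11 EV and 519.8 ± 15.6 CPM in Molm-14 EV (SD, n = 3; log2 fold change -0.12, SE 0.175, edgeR adjusted p = 0.590), but was called lower in MV4-11 EV with the GC correction (log2 fold change -0.48, edgeR adjusted p = 0.0389). SERPINB1 lost its call without MV4-11 EV replicate 3 (log2 fold change 0.17, edgeR adjusted p = 0.0507).

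**Figure D2:**
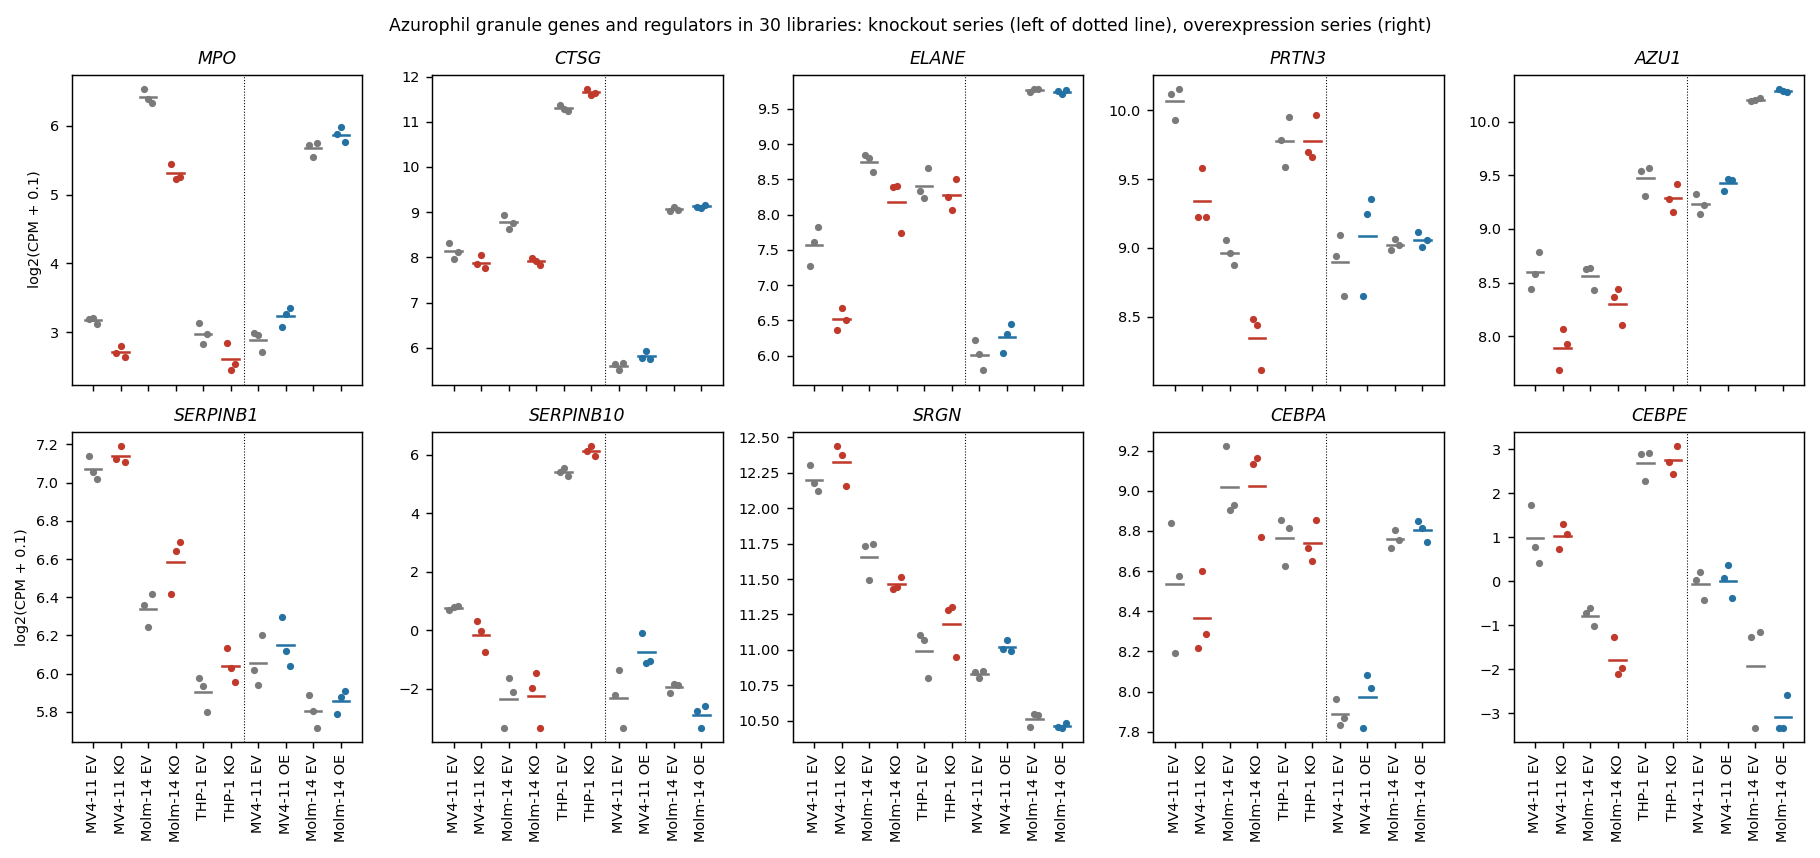
Level of each of the 10 genes as log2(CPM + 0.1), 1 point per library, with a line at the mean of each group of n = 3 on that scale; EV is gray, KO red and OE blue, and each panel has its own axis. The knockout series is left of the dotted line and the overexpression series right of it, and the 2 were scaled separately. ELANE, PRTN3 and AZU1 lie lower in MV4-11 KO than in MV4-11 EV with no overlap, while CTSG and SERPINB10 lie higher in THP-1 KO than in THP-1 EV.

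In MV4-11 cells with the MPC1 deletion, the 3 protease-family genes on chromosome 19 were lower. ELANE, PRTN3 and AZU1 passed the test, which is 3 of 10 genes called lower, beside 2.24% of all 14490 genes called lower and 5.41% called in either direction. ELANE was at 155.1, 195.5 and 227.6 CPM in EV and at 82.6, 102.1 and 91.1 CPM in KO. Every KO library was below every EV library, and the mean in KO was 47.8% of that in EV (log2 fold change -1.06, SE 0.195, edgeR adjusted p = 0.00849). These are bulk samples, in which fewer cells that make a transcript and less of it per cell cannot be told apart. PRTN3 was at 1109, 973.0 and 1142 CPM in EV and at 596.5, 765.4 and 598.0 CPM in KO. Per kb it kept the highest level of the 3 genes in both groups, and it fell to 60.8% of the EV mean (log2 fold change -0.72, SE 0.115, edgeR adjusted p = 7.48e-04). AZU1 was at 348.0, 382.4 and 440.8 CPM in EV and at 205.1, 268.9 and 243.7 CPM in KO. Its groups did not overlap either, and it fell to 61.4% of the EV mean (log2 fold change -0.70, SE 0.110, edgeR adjusted p = 4.35e-04). The ELANE call was lost, with an adjusted p of 0.0557, when MV4-11 KO replicate 1 was left out of the edgeR fit.

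The other 7 genes did not pass the test in MV4-11 KO. MPO was at 9.05, 9.16 and 8.64 CPM in EV and at 6.40, 6.89 and 6.16 CPM in KO, from 45 to 78 counts per library. The groups did not overlap, but the test was missed (log2 fold change -0.46, SE 0.148, edgeR adjusted p = 0.0627). CTSG was at 317.6, 251.1 and 278.2 CPM in EV and at 230.1, 265.2 and 216.6 CPM in KO, which overlap (log2 fold change -0.25, SE 0.0955, edgeR adjusted p = 0.121). SERPINB10 rested on 4 to 13 counts per library, with a log2 fold change of -0.93 (SE 0.371). In all, 5 of the 10 genes had lower values in every KO library, namely MPO, ELANE, PRTN3, AZU1 and SERPINB10, beside 9.1% of all genes tested. SERPINB1 (log2 fold change 0.07), SRGN (0.13), CEBPA (-0.18) and CEBPE (-0.08) each overlapped between the groups. CEBPA was at 457.8, 292.6 and 380.9 CPM in EV and at 297.6, 387.7 and 312.1 CPM in KO, so that its spread between EV libraries was wider than the difference of the means. Among markers, KRT18 rose in MV4-11 KO, from a mean of 2.06 CPM to 4.14 CPM (log2 fold change 0.98, edgeR adjusted p = 0.0278). KLF1 of the same list went from 1.69 CPM to 0.775 CPM and was not called. The list of other cell types summed to 5.15 to 7.77 CPM in KO and 4.17 to 5.57 CPM in EV. The myeloid list summed to 1350 to 1450 CPM in KO and 1250 to 1310 CPM in EV, but 6 of its 10 genes had a log2 fold change below 0. FLT3, its largest part, had means of 726 CPM in EV and 848 CPM in KO. PTPRC was called higher (log2 fold change 0.27, edgeR adjusted p = 0.0422) and SPI1 lower (-0.46, edgeR adjusted p = 0.0486). The part of these shifts in the granule genes was not tested.

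**Figure D3:**
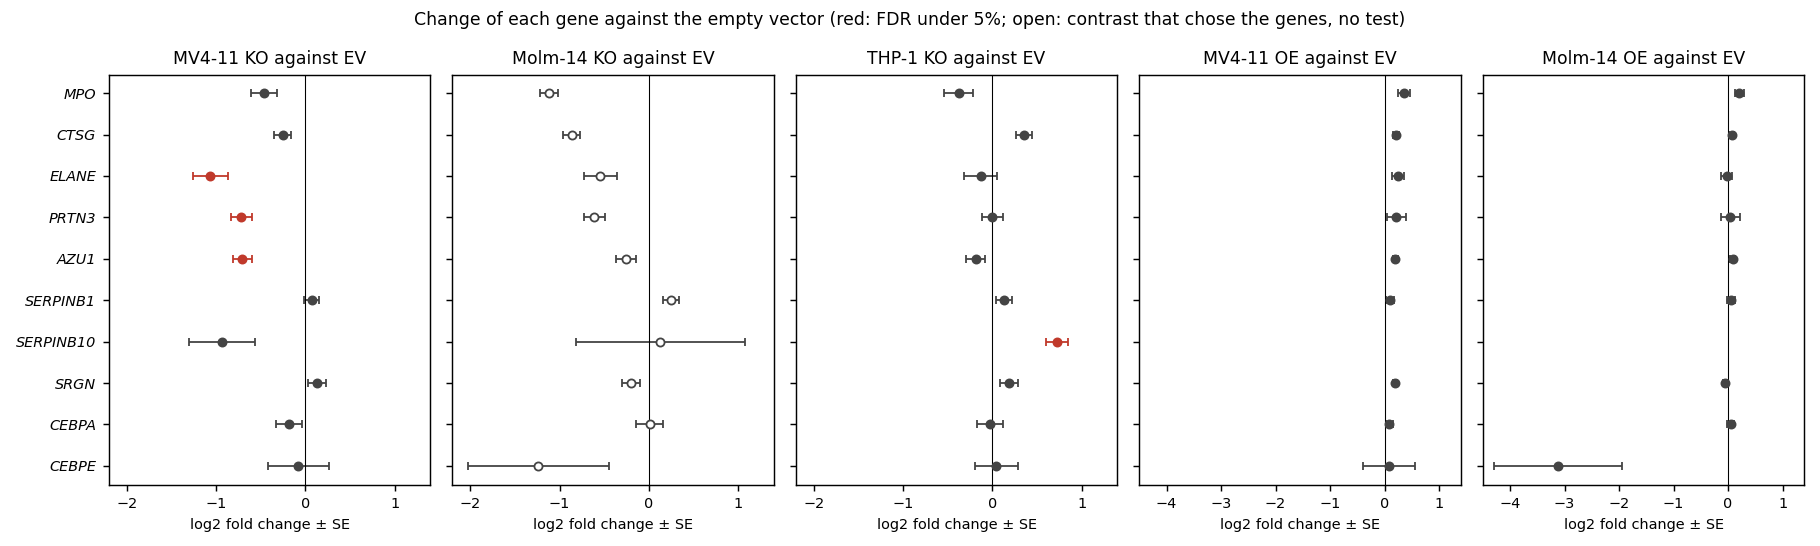
Log2 fold change of each gene against the empty vector of the same line and series (points, edgeR estimate; bars, SE; n = 3 against 3 libraries), for 3 KO and 2 OE comparisons, with a wider axis for OE. Red points passed an FDR of 5%, and these are ELANE, PRTN3 and AZU1 in MV4-11 KO and SERPINB10 in THP-1 KO; open points are the comparison that chose the genes and carry no test.

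The neighbourhood of the 3 chromosome 19 genes was examined as a feature that was not used to choose them. Within 100 kb of the cluster, 7 other genes were tested. In MV4-11 KO, 0 of 7 were called by edgeR or by DESeq2. An unadjusted p under 0.05 was found for 3 of 7, beside 3236 of all 14490 genes tested. Their log2 fold changes in MV4-11 KO ran from -0.31 to 0.06 with a median of -0.27, beside a median of 0.02 over all genes tested. CFD, the complement factor D gene that lies next to ELANE and encodes a related serine protease, was at 538 CPM in EV and 561 CPM in KO (log2 fold change 0.06, SE 0.123, edgeR adjusted p = 0.826). PLPPR3, on the other side of AZU1, was at 217 CPM in EV and 176 CPM in KO (log2 fold change -0.31, SE 0.147, edgeR adjusted p = 0.234). Each of AZU1, PRTN3 and ELANE had a lower log2 fold change than each of the 7 neighbours in MV4-11 KO, a difference that was not tested. In Molm-14 KO, CFD had a log2 fold change of -0.45 (SE 0.126), between those of AZU1 and PRTN3. In THP-1 KO the median log2 fold change of the 7 neighbours was -0.03.

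**Figure D4:**
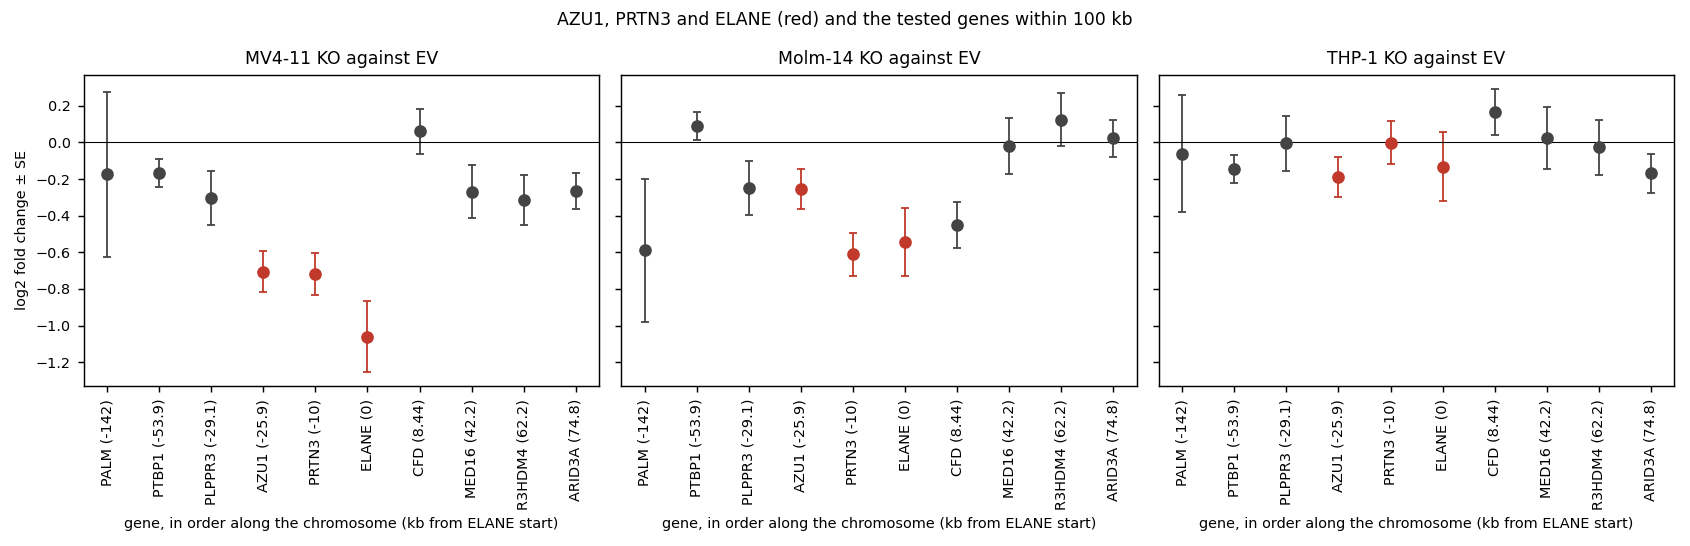
Log2 fold change (points, edgeR estimate; bars, SE; n = 3 against 3 libraries) of AZU1, PRTN3 and ELANE in red and of the 7 other tested genes within 100 kb in gray, in order along the chromosome with the distance from the ELANE start in kb in parentheses. In MV4-11 KO the 3 red genes lie below the neighbours, CFD included; in Molm-14 KO, CFD and PALM lie among the red genes; in THP-1 KO the 10 genes lie around 0.

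In Molm-14 cells, where MPO and CTSG chose the set, the values are given as a description. MPO was at 93.0, 84.1 and 80.7 CPM in EV and at 43.5, 37.5 and 38.1 CPM in KO, a KO mean of 46.2% of EV (log2 fold change -1.11, SE 0.101). CTSG was at 487.5, 395.6 and 435.0 CPM in EV and at 255.3, 243.5 and 226.3 CPM in KO (log2 fold change -0.86, SE 0.0957). The groups did not overlap in either gene. PRTN3 was at 531.6, 499.7 and 468.3 CPM in EV and at 357.7, 347.4 and 275.8 CPM in KO (log2 fold change -0.61, SE 0.117). ELANE was at 462.5, 446.3 and 388.2 CPM in EV and at 336.0, 340.7 and 213.0 CPM in KO (log2 fold change -0.54, SE 0.185), where KO replicate 3 lay well below the other KO libraries. AZU1 overlapped between the groups (log2 fold change -0.26, SE 0.109), with 1 KO library at 347.8 CPM and 1 EV library at 346.0 CPM.

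The serpins, SRGN and CEBPA overlapped between Molm-14 EV and KO. SERPINB1 had a log2 fold change of 0.25 (SE 0.0857), SRGN of -0.20 (SE 0.103) and CEBPA of 0.01 (SE 0.147), with CEBPA at 521 ± 66.7 CPM in EV and 524 ± 76.0 CPM in KO (SD, n = 3). SERPINB10 had 0 to 2 counts per library and CEBPE 1 to 5, at or near the floor, so their fold changes are not read. With CEBPE included, 5 of the 10 genes did not overlap between the groups and were lower in KO, beside 8% of all genes tested, a count that the choice of the set partly fixes. Within the 5 granule transcripts, the share of MPO per kb was 1.36% ± 0.0185 in Molm-14 EV and 0.958% ± 0.136 in KO, that of CTSG 22.5% ± 1.87 and 18.8% ± 1.98, and that of AZU1 14.9% ± 0.706 and 18.9% ± 0.868. Their summed level was 1426 ± 99.2 CPM per kb in EV and 947.7 ± 141 CPM per kb in KO. In MV4-11 the sum was 1586 ± 118 CPM per kb in EV and 988.8 ± 129 CPM per kb in KO. There ELANE made up 11.8% ± 1.97 in EV and 9.07% ± 0.448 in KO, and CTSG 13% ± 1.46 and 17.6% ± 0.884.

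In THP-1 cells, the same deletion came with a rise of SERPINB10 and no call in any granule protease. That is 1 of 10 genes called, beside 0.0897% of all genes tested. SERPINB10, a serpin of hematopoietic cells that is also called bomapin, was at 42.2, 46.4 and 38.4 CPM in EV and at 69.3, 78.9 and 62.3 CPM in KO. Every KO library was above every EV library (log2 fold change 0.73, SE 0.123, edgeR adjusted p = 0.00869). With 1 library left out at a time, 4 of 6 fits lost the call, those without THP-1 EV replicate 1 (edgeR adjusted p = 0.0676), EV replicate 3 (0.0887), KO replicate 1 (0.0664) or KO replicate 2 (0.208), while its log2 fold change stayed at 0.64 or more. CTSG, the leading transcript of this line, was at 2649, 2477 and 2433 CPM in EV and at 3406, 3066 and 3182 CPM in KO. Its groups did not overlap, but it missed the threshold (log2 fold change 0.35, SE 0.0925, edgeR adjusted p = 0.215). SERPINB10 and CTSG are 2 of 10 genes with higher values in every KO library, beside 6.8% of all genes tested.

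PRTN3 and ELANE differed little between THP-1 EV and KO. PRTN3 was at 880.0 ± 110 CPM in EV and 879.4 ± 104 CPM in KO (SD, n = 3; log2 fold change 0.00, SE 0.115), and ELANE at 343.2 ± 54.0 and 313.0 ± 48.6 CPM (log2 fold change -0.13, SE 0.186). AZU1 (log2 fold change -0.19, SE 0.108) and MPO (-0.37, SE 0.161) overlapped between the groups, with edgeR adjusted p of 0.678 and 0.576. In ELANE, AZU1 and MPO, each KO library was below the EV library of the same replicate number. These genes were called in 0 of 12 alternative fits, among them a fit with the replicate number as a block. MPO rested on 34 to 65 counts per library. SERPINB1 (log2 fold change 0.14), SRGN (0.19), CEBPA (-0.03) and CEBPE (0.04) were not called. The summed level of the 5 granule transcripts was 3803 ± 219 CPM per kb in THP-1 KO and 3372 ± 186 in EV. The markers of other cell types summed to 1.04 to 2.51 CPM in KO and 1.79 to 2.26 CPM in EV.

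Whether the deletion acted differently in MV4-11 and THP-1 was tested directly, as the difference between the KO effects. All 10 differences were negative, beside a median of 0.01 over all genes tested, but 0 of 10 passed the threshold in edgeR, beside 0.193% of all genes tested. The differences of MPO, CEBPA, SRGN and CEBPE kept this sign in 16, 16, 15 and 13 of 18 alternative fits. At an unadjusted p under 0.05 there were 5 of 10, beside 1311 of all 14490 genes tested. DESeq2 called 4 of 10, beside 65 of 14490. CTSG was nearest, with a difference of -0.60 on the log2 scale (SE 0.133, edgeR adjusted p = 0.0545). PRTN3 differed by -0.72 (SE 0.162, edgeR adjusted p = 0.0782), SERPINB10 by -1.66 (SE 0.390, edgeR adjusted p = 0.0813), ELANE by -0.93 (SE 0.269, edgeR adjusted p = 0.287) and AZU1 by -0.52 (SE 0.153, edgeR adjusted p = 0.238). MPO differed by -0.09 (SE 0.220), since its estimate was below 0 in both lines. Over 18 alternative fits the CTSG difference passed in 7, with an adjusted p from 2.08e-04 to 0.181. Among these were edgeR scaled by RLE (adjusted p = 0.0455), edgeR with a GC correction (0.0452) and DESeq2 (0.00427).

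In the overexpression series, miR-1 gave no called change in the granule genes. In MV4-11 OE, 0 of 9 genes passed in edgeR, beside 0.177% of all genes tested, and DESeq2 called 1 of 9, SRGN. An unadjusted edgeR p under 0.05 was found for 5 of 9, beside 1035 of all 17542 genes tested. All 9 log2 fold changes were above 0, with a median of 0.20 beside 0.01 over all genes tested. MPO was at 7.82, 7.67 and 6.48 CPM in EV and at 8.36, 9.55 and 10.1 CPM in OE (log2 fold change 0.35, SE 0.110, edgeR adjusted p = 0.384). SRGN was at 1835, 1786 and 1851 CPM in EV and at 2056, 2150 and 2033 CPM in OE (log2 fold change 0.19, SE 0.0407, edgeR adjusted p = 0.0667). AZU1 was at 640.1, 565.0 and 598.7 CPM in EV and at 656.4, 706.2 and 702.9 CPM in OE (log2 fold change 0.20, SE 0.0472, edgeR adjusted p = 0.139). In these and in CTSG (log2 fold change 0.21) every OE library was above every EV library, which is 4 of 9 genes, beside 5.06% of all genes tested.

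ELANE and PRTN3 overlapped between MV4-11 EV and OE. PRTN3 was at 490.4, 546.1 and 402.1 CPM in EV and at 402.1, 608.5 and 655.6 CPM in OE, a wide spread in both groups (log2 fold change 0.21, SE 0.175). Without MV4-11 OE replicate 1, the library with the lowest PRTN3 and ELANE of the OE group, AZU1 (edgeR adjusted p = 0.0160) and SRGN (edgeR adjusted p = 0.0204) were called. SERPINB10, which was not tested, had 0 to 6 counts in the EV libraries and 7 to 14 counts in the OE libraries of MV4-11.

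In Molm-14 OE, 0 of 9 genes were called by edgeR, beside 0.0057% of all genes called, and DESeq2 called 0. MPO and CEBPE, 2 of 9, had an unadjusted edgeR p under 0.05, beside 768 of all 17542 genes tested. MPO was at 52.5, 46.7 and 53.9 CPM in EV and at 58.7, 63.0 and 54.3 CPM in OE (log2 fold change 0.20, SE 0.0828). AZU1 was at 1170, 1178 and 1190 CPM in EV and at 1268, 1245 and 1239 CPM in OE (log2 fold change 0.08, SE 0.0470). MPO and AZU1 were the 2 of 9 genes that were higher in every OE library, beside 7.8% of all genes tested. The log2 fold changes of CTSG (0.06), ELANE (-0.02), PRTN3 (0.04), SERPINB1 (0.05), SRGN (-0.05) and CEBPA (0.04) were within 0.10 of 0. CEBPE had 0 to 6 counts per library, so its log2 fold change of -3.12 (SE 1.18) lies at the floor and is not read. The difference between the OE effects of the 2 lines passed for 0 of 9 genes in edgeR, beside 0.0456% of all genes called, and DESeq2 called 0. SRGN and CEBPE, 2 of 9, had an unadjusted edgeR p under 0.05 for this difference, beside 929 of all 17542 genes tested. SRGN came nearest, at 0.24 on the log2 scale (SE 0.0575, edgeR adjusted p = 0.373).

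The genes around the set were described by 5 lists. Other contents of the azurophil granule had 1 of 17 tested genes called higher and 1 called lower in MV4-11 KO, beside 5.41% of all genes called in either direction, with a median log2 fold change of -0.04, beside 0.02 over all genes tested and -0.36 over the 10 genes of the set. The lysosomal hydrolase FUCA1 rose, with a mean of 83.3 CPM in EV and 136.6 CPM in KO (log2 fold change 0.71, SE 0.102, edgeR adjusted p = 1.64e-04). RNASE2, the eosinophil-derived neurotoxin, fell, with a mean of 111.7 CPM in EV and 84.0 CPM in KO (log2 fold change -0.41, SE 0.120, edgeR adjusted p = 0.0448). LYZ, BPI, PRSS57 and the cathepsins B, D and H were not called in MV4-11 KO. The log2 fold change of PRSS57 there was -0.40 (edgeR adjusted p = 0.152). In Molm-14 KO, again as a description, the 17 genes had a median log2 fold change of 0.03, with 10 above 0 and 7 below. LYZ, which encodes lysozyme, had a mean of 321.5 CPM in EV and 625.8 CPM in KO (log2 fold change 0.96), against the direction of MPO and CTSG in the same libraries. PRSS57 went in their direction, with 210.6 CPM in EV and 158.3 CPM in KO (log2 fold change -0.41, SE 0.160). In THP-1 KO, 0 of 17 were called by edgeR or DESeq2. At an unadjusted p under 0.05 there were 5 of 17, beside 1160 of all 14490 genes tested. In MV4-11 OE and in Molm-14 OE, 0 of 18 were called by either method. There 2 of 18 each had an unadjusted p under 0.05, beside 1035 and 768 of all 17542 genes tested.

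Of the other transcription factors that act on granule genes, 4 of 17 passed in MV4-11 KO, beside 5.41% of all genes. SPI1, which encodes PU.1, fell, with a mean of 61.4 CPM in EV and 44.4 CPM in KO (log2 fold change -0.46, SE 0.137, edgeR adjusted p = 0.0486). GATA2, a factor of stem and progenitor cells, fell, with a mean of 1.81 CPM in EV and 0.723 CPM in KO (log2 fold change -1.28, SE 0.383, edgeR adjusted p = 0.0479). Its KO mean is near the 0.338 to 0.544 CPM that a count of 0 allows. ID2, an inhibitor of helix-loop-helix factors, rose from a mean of 37.8 CPM to 56.0 CPM (log2 fold change 0.56, SE 0.108, edgeR adjusted p = 0.00334). IRF8, a factor of the monocytic lineage, rose too, with 794.6 CPM in EV and 961.4 CPM in KO (log2 fold change 0.27, SE 0.0817, edgeR adjusted p = 0.0463). The SPI1, GATA2 and IRF8 calls lie just under the threshold. DESeq2 called 5 of 17, and the other alternative fits were not read for the genes of this list. In THP-1 KO and in both OE comparisons, 0 of 17 were called by edgeR or DESeq2, with 1 of 17 at an unadjusted p under 0.05 in each. Over all genes, 1160 of 14490 were at that level in THP-1 KO, 1035 of 17542 in MV4-11 OE and 768 of 17542 in Molm-14 OE. In Molm-14 KO, the comparison behind the choice of the set, the factors are given as a description with no test. Their median log2 fold change was -0.01, with values on both sides of 0. IRF8 had a mean of 485.9 CPM in Molm-14 EV and 868.3 CPM in KO (log2 fold change 0.84). GATA2 had 19.9 CPM in EV and 9.23 CPM in KO (log2 fold change -1.10). IRF8, GATA2 and ID2 (log2 fold change 0.22, SE 0.111) had the sign they had in MV4-11 KO. SPI1 did not, at 27.4 CPM in Molm-14 EV and 28.9 CPM in KO (log2 fold change 0.07, SE 0.151).

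Of 17 genes that process or sort granule proteins, 0 were called in MV4-11 KO by edgeR or DESeq2. An unadjusted p under 0.05 was found for 3 of 17, beside 3236 of all 14490 genes tested. CTSC, the cathepsin that activates the serine proteases, was called in MV4-11 OE, where it fell and had means of 249.4 CPM in EV and 211.4 CPM in OE (log2 fold change -0.24, SE 0.0443, edgeR adjusted p = 0.0287). It was the 1 of 17 called there by edgeR, beside 0.177% of all genes tested. DESeq2 called 2 of 17 there, beside 68 of 17542. Of 10 tested inhibitors of proteases, 1 was called by edgeR in MV4-11 KO, beside 5.41% of all genes tested. This was CST7, at 16.5 CPM in EV and 11.2 CPM in KO (log2 fold change -0.57, SE 0.156, edgeR adjusted p = 0.0327). DESeq2 called 3 of 10, beside 904 of 14490. An unadjusted edgeR p under 0.05 was found for 4 of 10, beside 3236 of 14490. Of the later granule and C/EBP epsilon target genes only 7 of 18 were expressed enough to be tested in the knockout series. CYBB, the large subunit of the phagocyte oxidase, was the 1 of 7 called in MV4-11 KO, beside 5.41% of all genes tested. It had 40.4 CPM in EV and 29.4 CPM in KO (log2 fold change -0.46, SE 0.106, edgeR adjusted p = 0.0130).

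**Figure D5:**
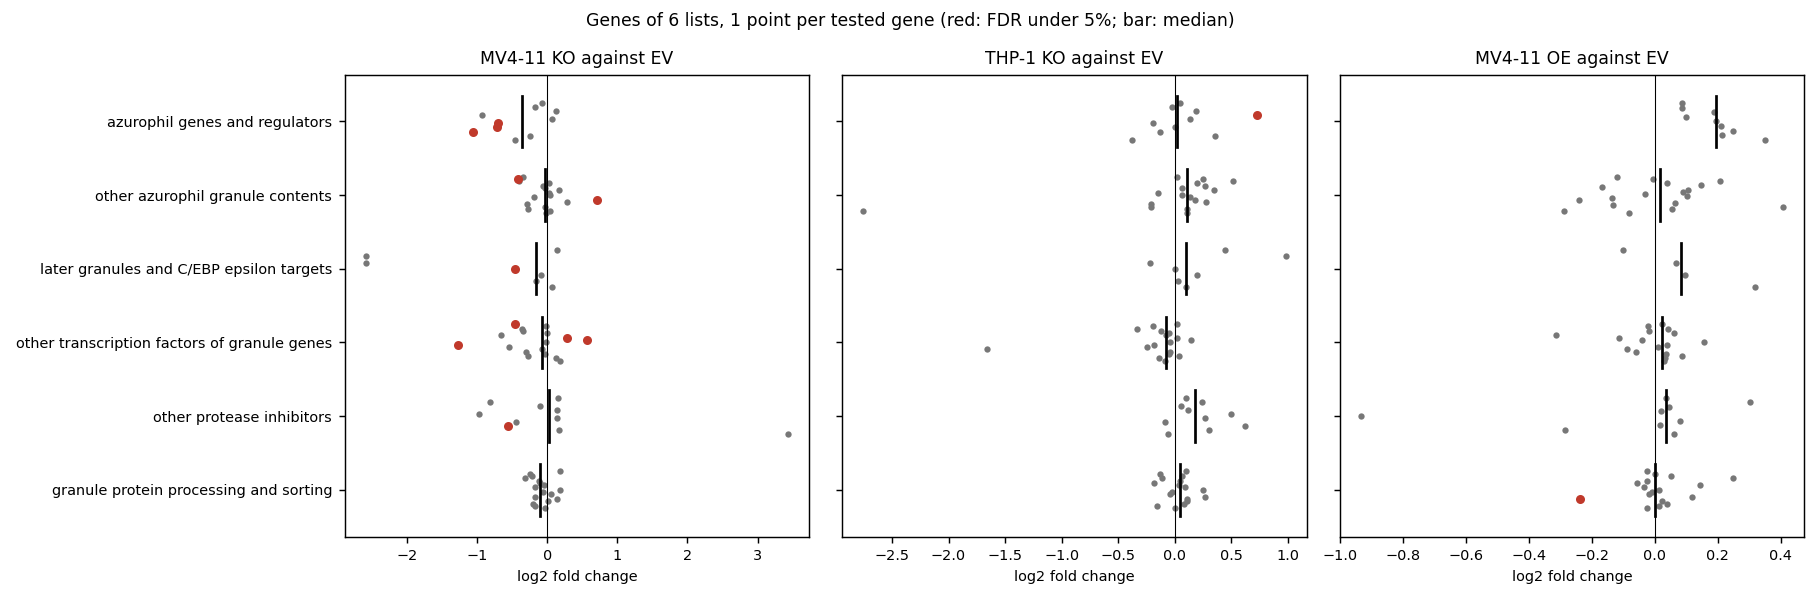
Log2 fold changes of the tested genes in the set and in 5 related lists (1 point per gene; black bar, median), for MV4-11 KO, THP-1 KO and MV4-11 OE against EV, each with its own axis. Red points passed an FDR of 5%; the set has 3 red points below 0 in MV4-11 KO, 1 above 0 in THP-1 KO and none in MV4-11 OE.

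The genes of the set varied together to different degrees among replicate libraries. After the group mean was removed from the log2 CPM, ELANE and AZU1 had a Pearson correlation of 0.897 and ELANE and PRTN3 of 0.777 over the 18 libraries of the knockout series, and 0.635 and 0.831 over the 12 libraries of the overexpression series. MPO and CTSG had 0.563 and -0.340. ELANE and SERPINB1 had -0.590 and -0.765. In the knockout series CEBPA had 0.841 with CTSG, 0.809 with PRTN3, 0.488 with AZU1, 0.395 with ELANE and 0.339 with MPO. In the overexpression series these were 0.501, 0.668, 0.806, 0.668 and 0.467. These are descriptions over libraries that share depth and base composition. ELANE, PRTN3 and AZU1 are rich in GC, at 66.8%, 66.4% and 63.4% of the bases of the longest transcript, against 54.7% in CTSG and 43.4% in SERPINB1. The log2 difference between MV4-11 KO and EV of genes with the same GC content as ELANE, PRTN3 and AZU1 was -0.12, -0.12 and -0.10, and all 3 genes passed with this trend removed.

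The transcripts whose pattern over all libraries was most like that of MPO were CHCHD7, LINC00639, CYP2W1, NADK2 and CRADD-AS1, of 13626 genes tested in both series. For CTSG they were COL4A1, CHI3L1, ADAMTS2, NEGR1 and TBX18. Likeness was the smaller of 2 Pearson correlations of log2 CPM, over 18 libraries and over 12 libraries, which was 0.982 or more for the MPO list and 0.972 or more for the CTSG list. The points share cell lines, and such correlations follow mainly the differences between lines. No gene of the set was among these, and MPO and CTSG had a correlation of -0.401 in the knockout series and 0.994 in the overexpression series, which held no THP-1 cells.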

How the data were processed

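The deposited counts were raw reads per Ensembl gene, not normalized, with a separate table for the knockout and the overexpression series. Per the labels and the submitters' processing notes, the authors prepared stranded total RNA libraries after depletion of ribosomal RNA, trimmed reads with cutadapt 1.16, aligned them to GRCh38 with STAR 2.7.6a and assigned them to genes with featureCounts 1.6.3. Strand use in counting was not given in the sources used here. The tables list different numbers of genes and were scaled separately here, so no level was tested between them.

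The 10 genes, the lists and the tests were chosen with earlier results of these data known. GENCODE release 44 gave symbols and exon lengths for 56948 of 58051 and 60419 of 60675 IDs. Genes were filtered with filterByExpr (14490 and 17542 kept), scaled by TMM and fitted per series in edgeR 4.0.16 (R 4.3.3), with the robust quasi-likelihood model and 1 mean for each group. P-values were adjusted by Benjamini-Hochberg over all genes tested and called under an FDR of 5%. CPM used TMM-scaled sizes of the tested genes, and SE came from the F statistic. No test was made for the 10 genes in Molm-14 KO against EV. Of the gene lists, 1 is not reported here. Named are the 10 genes, up to 4 called genes per list with the largest change, the 5 genes most like MPO and the 5 most like CTSG. Named outside this rule, after their values were seen, are LYZ, BPI, PRSS57, CTSB, CTSD, CTSH, KRT18, KLF1, PTPRC, FLT3, and the neighbours CFD, PLPPR3 and PALM. Alternatives were RLE scaling, no filter, a replicate block, the compared groups only, DESeq2 1.42.0, each library left out and, added after seeing the data, a GC correction. Pairs of replicates differed by 1.55 to 17.8 in chi-square per degree of freedom over 30 pairs, and none was treated as a copy. The fit was tested on simulated counts.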

Additional observations from a re-analysis of the deposited data

Results flagged for a closer look

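The CTSG libraries lay on opposite sides of their EV libraries in 2 lines. Every Molm-14 KO library lay below every Molm-14 EV library (log2 fold change -0.86), a value that chose the set. Every THP-1 KO library lay above every THP-1 EV library, but that difference did not pass (log2 fold change 0.35, edgeR adjusted p = 0.215). The Molm-14 effect minus the THP-1 effect was -1.21 on the log2 scale. This difference was not tested, because the Molm-14 comparison chose the gene.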

How the results depend on the processing

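In MV4-11 KO, counts were 2 to 3 with 1 library left out, 4 with no filter (CTSG added) and 3 otherwise. In the THP-1 KO comparison 2 genes passed with no filter on low counts (CTSG added) and 0 to 1 with 1 library left out. For the difference between MV4-11 and THP-1 effects, the count of 0 became 1 with RLE scaling, 4 with no filter, 4 with DESeq2 and 3 with the GC correction, and 0 to 2 with 1 library left out. With the replicate number as a block it was 1. The pairing was checked by the correlation of deviations of same-numbered libraries, which ran from -0.377 to 0.330 over 15 pairs. In THP-1 these were 0.179, 0.0987 and 0.330, with at most 0.145 between libraries of different numbers. In each other line and series, no same-numbered value exceeded the largest one between different numbers. The numbers were not taken as pairs in the main fit, and whether the THP-1 libraries were made in pairs was not stated. In MV4-11 OE, 3 genes passed with no filter, 1 with DESeq2 and 0 to 2 with 1 library left out. PRTN3 between THP-1 EV and MV4-11 EV turned from -0.29 to 0.34 with the GC correction, where CEBPA went from 0.21 to 0.84, and PRTN3 between MV4-11 EV and Molm-14 EV went from -0.12 to -0.48. The cause of these changes was not tested. Of 1045 values for single genes under alternatives, 1003 stayed on the same side of the threshold, 31 of them uncalled estimates that changed sign, while 12 lost a call, 29 gained one and 1 reversed. Over all genes the number of calls also moved. The MV4-11 KO count of 784 became 356 in a fit of the compared libraries alone and 133 to 1400 with 1 library left out, and the Molm-14 KO count of 348 fell as low as 183 with 1 library left out. The THP-1 KO count of 13 became 30 with no filter, 20 with DESeq2, 4 with the compared libraries alone and as few as 3 with 1 library left out. The count of 28 for the difference between MV4-11 and THP-1 effects became 80 with no filter, 65 with DESeq2, 57 with the GC correction and 18 to 53 with 1 library left out. The MV4-11 OE count of 31 became 123 with no filter, 68 with DESeq2, 17 with the replicate block, 9 with the compared libraries alone and 12 to 47 with 1 library left out. The Molm-14 OE count of 1 became 195 with the compared libraries alone, 7 with no filter and 5 with DESeq2. The count of 8 for the difference between OE effects became 33 with no filter, 13 with DESeq2, 4 with the replicate block and as few as 4 with 1 library left out. Depth limited MPO in THP-1 (34 to 65 counts per library) and in the MV4-11 knockout libraries (45 to 78), CEBPE (0 to 55 over all libraries) and SERPINB10 in MV4-11 (0 to 14), and small changes in them were not detectable.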

Other observations

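The empty-vector cells of the same line carried different granule levels in the 2 series, which were sequenced and scaled separately and are not compared by a test. CTSG was at 282.3 ± 33.4 CPM (SD, n = 3) in MV4-11 EV of the knockout series and at 48.4 ± 2.93 CPM in MV4-11 EV of the overexpression series, while MPO was at 8.95 ± 0.276 and 7.32 ± 0.733 CPM. In the makeup of the 5 granule transcripts, AZU1 took 13.8% ± 1.27 of the summed CPM per kb in the former and 38.9% ± 3.80 in the latter. In Molm-14 EV, ELANE was at 432.3 ± 39.0 CPM in the knockout series and 873.5 ± 18.2 CPM in the overexpression series, and MPO at 85.9 ± 6.35 and 51.0 ± 3.82 CPM. The EV vectors differ between the series, and vector, culture and library preparation cannot be told apart here.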
